A study of Mus musculus with 10 samples.

Results

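The genes described here are the axon guidance ligands and receptors, chosen by symbol as the semaphorins, their plexin and neuropilin receptors, the Eph receptors, the ephrins, the Slits and Robos, and the netrins with Dcc and the Unc5 receptors. They were 69 of the 54309 genes in the annotation and comprised 35 ligands and 34 receptors. By family there were 20 semaphorins, 11 plexins and neuropilins, 14 Eph receptors, 8 ephrins, 7 Slits and Robos, and 9 netrins, Dcc and Unc5 genes. Of the 69, 68 passed the low-count filter. Epha1, at 0 to 10 counts per library, did not pass and was not tested.

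Guidance molecules steer growing axons by attraction or repulsion at the growth cone, the motile tip of the axon. Secreted semaphorins bind neuropilins, which signal through plexins, while membrane-bound semaphorins bind plexins directly. Ephrins are anchored to the cell surface and bind Eph receptor tyrosine kinases on contact, with signals in both cells. Slits repel axons through Robo receptors, and netrin-1 attracts through Dcc and repels through the Unc5 receptors. Many of these genes remain expressed in adult sensory neurons and glia of the dorsal root ganglion (DRG), where sensory neurons extend an axon into the peripheral nerve.

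The RNA came from DRG of female and male C57BL/6 mice aged 6 to 8 weeks. Mice underwent complete transection of the left sciatic nerve (axotomy) or exposure of the nerve without transection (sham). The L4 and L5 DRG of the operated side were collected 24 h later, and each library pooled 2 mice. There were 2 female sham, 3 female axotomy, 2 male sham and 3 male axotomy libraries. Each library is numbered as its label gives it. A DRG is a mixed tissue of neurons and non-neuronal cells, so that fewer cells of a type and less RNA per cell cannot be told apart.

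Depth was 55258476 to 90111671 estimated counts per library, with the lowest in female axotomy 2 and the highest in male axotomy 2, and the 69 genes held 0.265% to 0.314% of the counts. All 8 sensory neuron markers were expressed in every library. Their summed level was 8145 to 8584 normalized TPM (transcript abundance corrected for length and library, as defined with the levels) in female sham, 8307 to 8812 in female axotomy, 8586 to 9012 in male sham and 7050 to 8443 in male axotomy. Rbfox3, Elavl4, Snap25, Isl1 and Avil were each lower in every axotomy library than in every sham library. Rbfox3 was at 106 to 126 in sham and 63.0 to 89.9 in axotomy, and Isl1 at 70.9 to 72.6 and 40.5 to 64.3. Tubb3 and Uchl1, the highest of the 8, and Prph overlapped between sham and axotomy. Myelinating Schwann cell markers (7 genes) stood at 5342 to 5942 in male sham and 7575 to 10209 in male axotomy, and at 6027 to 8261 and 5097 to 7398 in female sham and axotomy. Satellite glia markers (4 genes) stood at 995 to 1139 in male sham and 1331 to 1693 in male axotomy, and at 1183 to 1212 and 860 to 913 in female sham and axotomy. Fibroblast and meningeal markers (11 genes) were at 718 to 822 in male sham, 1835, 1069 and 2671 in male axotomy 1, 2 and 3, 931 to 962 in female sham and 884 to 1388 in female axotomy. Macrophage markers (8 genes) were at 45.2 to 48.0 in male sham, 98.1 to 169 in male axotomy, 56.6 to 71.8 in female sham and 75.4 to 101 in female axotomy. No marker of these 5 lists was at 0 in any library. Female axotomy 2 held the highest sum of skeletal muscle markers, at 120 against 3.64 to 26.5 in the other libraries. Except for the fibroblast and meningeal markers, which were entered as a covariate, the part of these shifts in the results was not tested.

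Levels are given as TPM, which corrects for transcript length and allows genes to be compared. The deposited TPM of all genes tested shifted between axotomy and sham by a median log2 difference of −0.117 in females and −0.163 in males. Each library was therefore multiplied by 1 normalization factor (0.925 to 1.12), after which these medians were 0.00 and 0.04, and the product is called normalized TPM. In sham DRG the levels of the 69 genes ranged over several orders of magnitude. Plxnc1, the plexin that binds Sema7a, had the highest mean level over all libraries and stood at 98.7 ± 2.87 (SD, n = 2) normalized TPM in female sham and 97.0 ± 3.89 (SD, n = 2) in male sham. Sema3b, a secreted semaphorin, followed at 92.7 ± 5.78 and 83.6 ± 4.55, and its libraries overlapped those of Plxnc1. The leading genes of the other families were Robo2 at 59.6 to 65.8, Efna1 at 30.2 to 31.1, Ephb6 at 15.2 to 17.3 and Unc5c at 6.16 to 6.99 normalized TPM in the 4 sham libraries. At the low end, Sema3a, the repulsive ligand of neuropilin-1, stood at 0.050 to 0.0969 and rested on 9 to 18 counts per sham library, and Robo3 at 0.0457 to 0.166 on 9 to 29 counts. Netrin-1 (Ntn1) stood at 3.11 to 3.84 and its attractive receptor Dcc at 0.387 to 0.515.

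**Figure D1:**
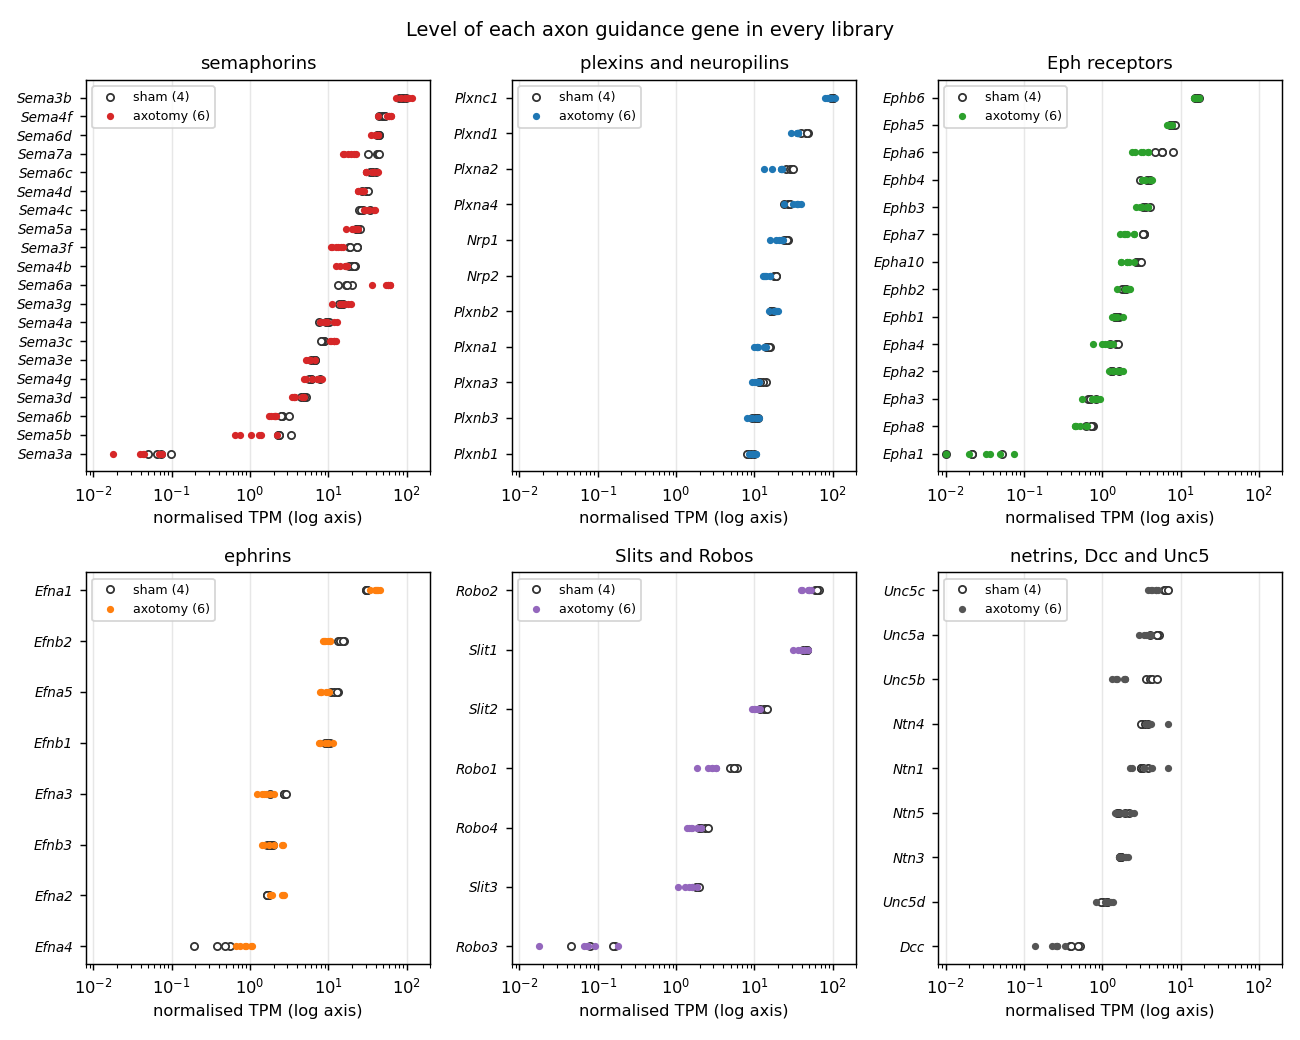
Normalized TPM (log axis) of all 69 genes in the 4 sham libraries (open circles) and the 6 axotomy libraries (filled circles), in 6 panels by family, with genes ordered by their sham mean. Values under 0.01 are drawn at 0.01. Sema6a is the semaphorin whose filled circles lie furthest to the right of its open ones, and those of Unc5b, Robo1 and Sema7a lie to the left.

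The effect of axotomy was tested in each sex across all 20836 genes that passed the filter, with edgeR and padj under 0.1 for a differentially expressed gene (DEG). In females 6 of the 68 genes were upregulated, 19 were downregulated and 43 did not pass. Of all genes tested in females, 10.5% were upregulated and 9.7% downregulated, against 8.8% and 27.9% of the guidance genes. In males 11 were upregulated, 25 were downregulated and 32 did not pass. The shares among all genes in males were 22.6% up and 19.4% down, against 16.2% and 36.8% of the guidance genes. The median log2FC (log2 ratio of axotomy to sham) of the guidance genes was −0.26 in females and −0.13 in males, while that of all genes was 0.00 and 0.04. For the mean of the female and male log2FC, 7 genes were upregulated and 31 downregulated, or 10.3% and 45.6%, against 24.4% and 22.2% of all genes. With an absolute log2FC over 0.58 as well, 2 guidance genes were upregulated and 8 downregulated in females, where 4.39% and 3.48% of all genes were, and 3 were upregulated and 13 downregulated in males, where 11% and 7.91% of all genes were.

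Receptors and ligands had different counts. Of the 33 receptors tested, 12 were downregulated and 1 was upregulated in females (Plxna4), and 16 were downregulated and 1 was upregulated in males (Plxnb1). The median log2FC of receptors was −0.26 in females and −0.40 in males. Of the 35 ligands, 7 were downregulated and 5 upregulated in females, and 9 were downregulated and 10 upregulated in males, with medians of −0.19 and 0.06. Of all genes tested, 10.5% were upregulated and 9.7% downregulated in females, and 22.6% and 19.4% in males. Whether receptors and ligands differed was not tested.

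Leaving out 1 library at a time gave 5 to 31 guidance DEGs in females, with 5 without female sham 2, 9 without female sham 1 and 15 without female axotomy 1, female axotomy 2 or male sham 2. The female counts were 1 to 7 up and 3 to 25 down, with 1 up and 8 down without female sham 1 and 2 up and 3 down without female sham 2. In males the count was 23 to 40, of which 2 to 11 were up and 21 to 29 down. Without male sham 1 the male counts were 2 up and 21 down, without male sham 2 they were 3 up and 21 down, and without male axotomy 1 they were 6 up and 25 down. The counts for the mean of the sexes were 4 to 9 up and 27 to 34 down, with 4 up without male sham 1 or male sham 2. Calls over all genes moved with the library left out too. Without female axotomy 1, 1150 were up and 848 down in females of 20798 tested, against 2194 and 2022 of 20836 with every library. Without male axotomy 1, 3740 were up and 3135 down in males of 20736 tested, against 4704 and 4039. They also fell in each sex without either sham library of that sex, which leaves 1 sham library. These falls were thus not particular to the guidance genes. The mean log2 level of the 11 fibroblast and meningeal markers was 4.41 and 4.47 in male sham and 4.92 to 5.88 in male axotomy. With this mean as a covariate, 5 guidance genes passed in males, 3 of which also passed without it (Sema6a, Unc5b and Sema7a, beside Plxna4 and Sema4f), and 29 passed in females. Every other male call was lost in this fit, among them those of Robo1, Robo2, Sema3f, Sema5b, Efnb2, Efna3, Epha6, Epha7, Unc5c and Dcc. In the same fit 5.36% of all genes passed in males and 25% in females. Because these markers separated male sham from male axotomy, their level and the injury cannot be told apart in males.

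**Figure D2:**
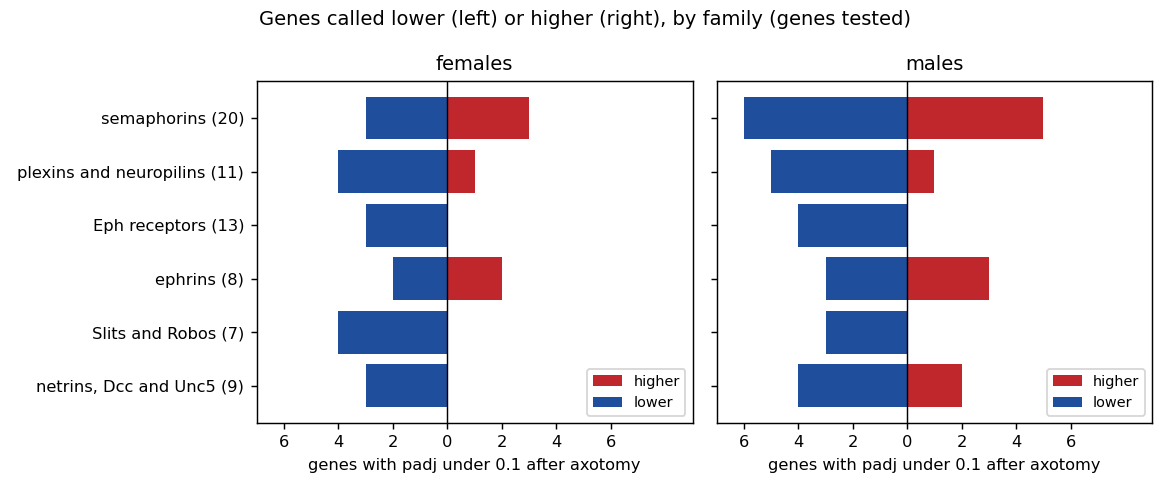
Number of genes with padj under 0.1 after axotomy in each family (number tested in parentheses), in females (left) and males (right). Bars to the right of 0 count upregulated genes and bars to the left count downregulated genes. No Eph receptor, Slit or Robo was upregulated in either sex, where 10.5% of all genes in females and 22.6% in males were.

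In 12 genes, or 17.6% of 68, the decrease passed the threshold in both sexes, against 7.47% of all genes tested. They were the receptors Dcc, Epha6, Epha7, Nrp2, Plxnd1, Robo1, Robo2, Unc5b and Unc5c and the ligands Efnb2, Sema3f and Sema7a. In 4 ligands, Efna1, Efna4, Sema3c and Sema6a, or 5.9%, the increase passed in both sexes, against 8.09% of all genes. No guidance gene passed in opposite directions, where 0.274% of all genes did. In 20 genes every axotomy library lay below every sham library, or 29.4% of 68, against 14.5% of all genes tested, and in 5 genes every axotomy library lay above, or 7.4%, against 14.1%. A further 7 genes were upregulated and 13 downregulated in males with no call in females, and 2 were upregulated and 7 downregulated in females with no call in males. Of all genes, 14.2% and 11.9% were upregulated and downregulated in males alone, against 10.3% and 19.1% of the guidance genes, and 2.42% and 1.98% in females alone, against 2.9% and 10.3%. The fold changes of these in the other sex had the same sign for all 13, for both of the 2, for 4 of the 7 downregulated in females and for 2 of the 7 upregulated in males (Ntn4 and Plxnb1). The 23 genes that passed in neither sex (33.8%, against 53.6% of all genes) included Plxnc1, Epha5, Slit1 and Sema6d.

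**Figure D3:**
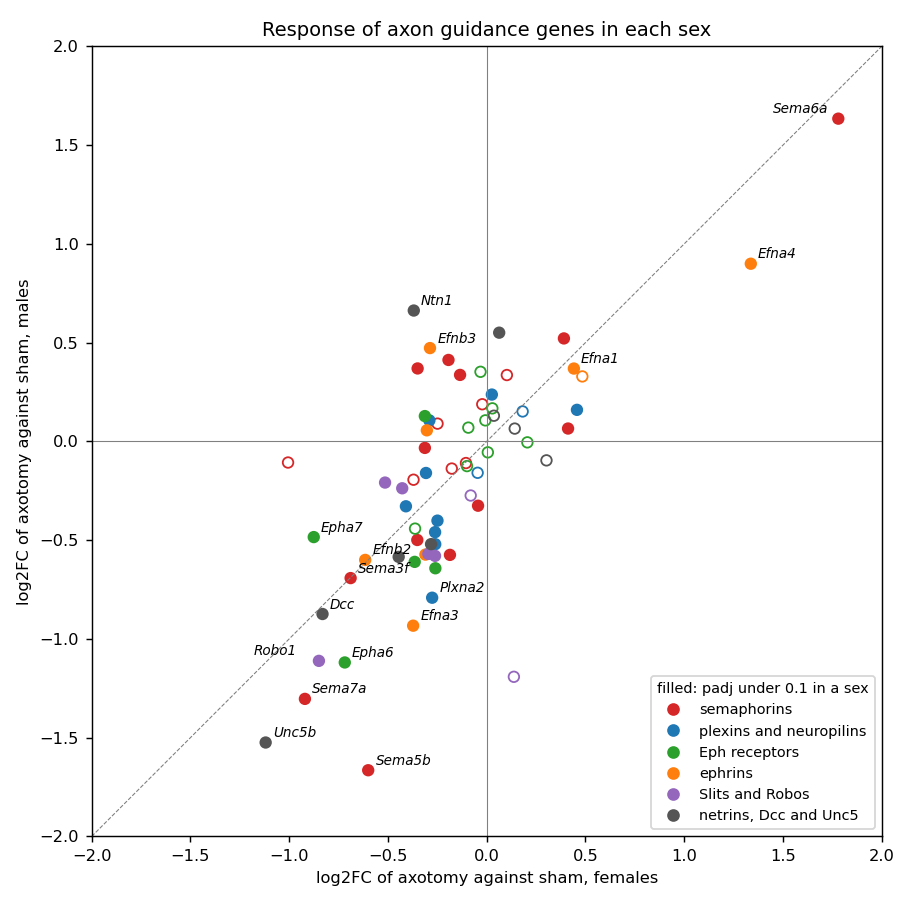
Log2FC of axotomy against sham in females (horizontal axis) and males (vertical axis) for the 68 guidance genes tested, colored by family, with filled points where padj was under 0.1 in at least 1 sex. Sema6a lies at 1.78 and 1.63, Unc5b at −1.12 and −1.52, and Ntn1 and Efnb3 lie above 0 in males and below 0 in females. The dashed line marks equal values.

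Semaphorins are the largest ligand family. Of the 20, 3 were upregulated and 3 downregulated in females, and 5 were upregulated and 6 downregulated in males. Among all genes the shares up and down were 10.5% and 9.7% in females and 22.6% and 19.4% in males. The sum of the family did not separate the groups, at 450 to 454 normalized TPM in sham and 438 to 498 in axotomy. Sema6a (ENSMUSG00000019647.17) is a transmembrane semaphorin that binds plexins A2 and A4. It stood at 13.2 and 19.8 normalized TPM in female sham, 57.7, 57.9 and 54.3 in female axotomy, 16.8 and 17.1 in male sham, and 60.5, 61.1 and 36.2 in male axotomy. All 6 axotomy libraries lay above all 4 sham libraries, and male axotomy 3 was the lowest of them. Sema6a was upregulated in females (log2FC = 1.78, SE 0.23, padj = 0.0017) and in males (log2FC = 1.63, SE 0.23, padj = 0.00129), and both calls held without any 1 library. It had the largest increase of the guidance genes in each sex. In every library 62.3% to 74.2% of the Sema6a counts were assigned to the longest protein-coding transcript, Sema6a-201, and 19.4% to 27.8% to Sema6a-202.

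Sema7a, a membrane-anchored semaphorin that binds plexin C1 and an integrin, had the opposite direction. Its levels were 32.4 and 41.6 normalized TPM in female sham, 17.9, 19.4 and 21.4 in female axotomy, 42.9 and 44.9 in male sham, and 15.6, 22.2 and 15.5 in male axotomy. Every axotomy library was below every sham library. Sema7a was downregulated in females (log2FC = −0.92, SE 0.16, padj = 0.00563) and males (log2FC = −1.304, SE 0.16, padj = 0.000678) and passed in both sexes without any 1 library. Its promoter is shown because Sema7a had the largest decrease among ligands that passed in both sexes. The 100 bases before the RefSeq start of Sema7a (chr9:57940012-57940111, plus strand of GRCm38.p6, 5′ to 3′) hold 2 GC boxes (GGGCGG or CCGCCC, the core of Sp1 motifs), given in capitals.
Sema7a: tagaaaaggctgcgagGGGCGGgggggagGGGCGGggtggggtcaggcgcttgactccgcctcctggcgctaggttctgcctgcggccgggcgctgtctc

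Sema3f, the secreted repulsive ligand of neuropilin-2, stood at 18.2 and 23.1 normalized TPM in female sham, 10.8, 13.2 and 14.3 in female axotomy, 18.9 and 23.0 in male sham, and 12.5, 15.2 and 11.2 in male axotomy. The groups did not overlap in either sex. The decrease was alike in females (log2FC = −0.69, SE 0.16, padj = 0.0208) and males (log2FC = −0.69, SE 0.16, padj = 0.00845), and the difference between these responses was 0.00 with an SE of 0.23. Over the fits that each left out 1 library, padj in females ran from 0.00989 to 0.23, and it missed the threshold without female sham 2 (padj = 0.23).

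Sema5b, a transmembrane semaphorin with thrombospondin repeats, was at 2.28 and 2.34 normalized TPM in female sham, 1.36, 1.04 and 2.18 in female axotomy, 2.37 and 3.36 in male sham, and 0.650, 1.298 and 0.739 in male axotomy. The 3 male axotomy libraries were the lowest together with female axotomy 2, and female axotomy 3 lay close to the sham libraries. Sema5b was downregulated in males (log2FC = −1.67, SE 0.33, padj = 0.00452) and did not pass in females (log2FC = −0.60, SE 0.33, padj = 0.261). The female log2FC ran from −0.95 to −0.38 when 1 library was left out, and Sema5b passed without female axotomy 3 (padj = 0.076). It also passed in females without the offset for transcript length (log2FC = −0.75, padj = 0.0817) and with protein-coding transcripts only (log2FC = −0.78, padj = 0.0848). The difference between the sexes did not pass (log2FC = −1.06, padj = 0.434). Between 0% and 96.6% of its counts were assigned to the transcript Sema5b-201 and 0% to 95.9% to Sema5b-202, depending on the library, so that its length correction also varied.

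Sema3b, the semaphorin with the highest level, stood at 96.8 and 88.6 normalized TPM in female sham, 96.5, 83.9 and 72.8 in female axotomy, 86.8 and 80.4 in male sham, and 116, 94.4 and 106 in male axotomy. The female groups overlapped, while the male axotomy libraries lay above male sham. Sema3b was upregulated in males (log2FC = 0.34, SE 0.12, padj = 0.0524) and did not pass in females (log2FC = −0.13, SE 0.12, padj = 0.494). In males padj ran from 0.018 to 0.308 when 1 library was left out, and it missed the threshold without male sham 1 (padj = 0.145), male sham 2 (padj = 0.308) or male axotomy 1 (padj = 0.159). Among the other semaphorins that passed, the log2FC in the sex of the call was 0.39 in females and 0.52 in males for Sema3c, 0.41 in females for Sema4f, −0.31 in females for Sema5a, 0.41 and 0.37 in males for Sema4a and Sema4g, and −0.33, −0.50 and −0.57 in males for Sema4d, Sema6b and Sema4b. Sema3c, a secreted semaphorin, was at 8.11 to 8.92 in sham and 10.5 to 12.7 in axotomy, with no overlap. Between 14.6% and 42.6% of the counts of Sema3f, Sema4a, Sema4g and Sema6c were assigned to transcripts that are not annotated as protein-coding.

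The semaphorin receptors that passed were mainly downregulated. Of the 11 plexins and neuropilins, 4 were downregulated in females (Nrp2, Plxna3, Plxnb3 and Plxnd1), or 36.4%, against 9.7% of all genes. In males 5 were (Nrp1, Nrp2, Plxna1, Plxna2 and Plxnd1), or 45.5%, against 19.4%. The summed level of the 11 was 298 to 314 normalized TPM in sham and 248 to 295 in axotomy, without overlap. Plxna2, a receptor of Sema6a, was at 25.03 and 28.3 normalized TPM in female sham, 21.9, 21.8 and 22.4 in female axotomy, 29.7 and 31.2 in male sham, and 16.9, 22.7 and 13.2 in male axotomy. Every axotomy library was below every sham library, with the lowest values in male axotomy 1 and 3. Plxna2 was downregulated in males (log2FC = −0.79, SE 0.17, padj = 0.00601) and did not pass in females (log2FC = −0.28, SE 0.17, padj = 0.31). In females its log2FC ran from −0.37 to −0.18 when 1 library was left out, and it passed without male axotomy 2 (padj = 0.0678). Plxna2 also passed in females in a fit of the female libraries only (padj = 0.0253) and with the marker covariate (padj = 0.0255). With that covariate its male call was lost (log2FC = −0.13, padj = 0.688). The difference between the responses did not pass (log2FC = −0.52, padj = 0.452).

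Plxna4, the other plexin that binds Sema6a, was upregulated in females (log2FC = 0.46, SE 0.16, padj = 0.0834) and stood at 24.2 to 27.1 in female sham and 34.5 to 36.4 in female axotomy. In males it was 27.3 to 28.5 and 23.7 to 38.8, with male axotomy 3 below male sham, and did not pass (log2FC = 0.16, padj = 0.466). Plxnc1, the receptor of Sema7a, did not pass in females (log2FC = −0.05, SE 0.10, padj = 0.804) or males (log2FC = −0.16, SE 0.10, padj = 0.251). Its libraries held 101 and 96.7 normalized TPM in female sham, 88.4, 91.8 and 107 in female axotomy, 99.7 and 94.2 in male sham, and 84.4, 96.2 and 80.0 in male axotomy. The female groups overlapped, as did the male groups. In males padj ran from 0.0541 to 0.573 when 1 library was left out and passed without male axotomy 2 (log2FC = −0.24). Nrp2, the co-receptor of Sema3f, fell in females (log2FC = −0.41, padj = 0.0117) and males (log2FC = −0.33, padj = 0.0124), from 17.6 to 18.8 in sham to 12.9 to 15.8 in axotomy. Nrp1, the co-receptor of Sema3a, was at 23.9 to 27.1 in sham and 16.0 to 23.1 in axotomy and passed in males (log2FC = −0.40) and not in females (log2FC = −0.25). Plxnd1, the receptor of Sema3e, fell in both sexes (log2FC = −0.26 in females and −0.52 in males).

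No Eph receptor was upregulated, where 10.5% of all genes in females and 22.6% in males were. Of the 13 tested, 3 were downregulated in females (Epha6, Epha7 and Ephb3) and 4 in males (Epha6, Epha7, Epha8 and Epha10). These were 23.1% and 30.8%, against 9.7% and 19.4% of all genes. The summed level of the Eph receptors was 49.7 to 54.3 normalized TPM in sham and 42.8 to 49.4 in axotomy. Epha7, a receptor of A-type ephrins, stood at 3.31 and 3.45 normalized TPM in female sham, 1.97, 1.87 and 1.68 in female axotomy, 3.39 and 3.36 in male sham, and 2.10, 2.55 and 2.58 in male axotomy. Axotomy and sham did not overlap in either sex, and the 3 female axotomy libraries were the lowest. Epha7 was downregulated in females (log2FC = −0.88, SE 0.13, padj = 0.00248) and males (log2FC = −0.48, SE 0.13, padj = 0.0145), and both calls held without any 1 library. The male call was lost with the marker covariate (log2FC = −0.41, padj = 0.353). The difference between the sexes did not pass (log2FC = 0.39, padj = 0.449).

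Epha6, another receptor of A-type ephrins, stood at 4.72 and 5.88 normalized TPM in female sham, 2.41, 3.35 and 3.90 in female axotomy, 8.03 and 5.83 in male sham, and 2.60, 3.82 and 3.12 in male axotomy. All axotomy libraries lay below all sham libraries, and male sham 1 was the highest. Epha6 was downregulated in males (log2FC = −1.12, SE 0.22, padj = 0.00422) and in females (log2FC = −0.72, SE 0.22, padj = 0.059). The female padj ran from 0.0366 to 0.361 when 1 library was left out, and it missed the threshold without female sham 1 (padj = 0.115), female sham 2 (padj = 0.361), female axotomy 1 (padj = 0.167) or female axotomy 2 (padj = 0.12).

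Epha10, an Eph receptor whose kinase domain is inactive, was at 2.67 and 2.79 normalized TPM in female sham, 2.09, 2.20 and 2.07 in female axotomy, 3.01 and 3.13 in male sham, and 1.75, 2.52 and 1.75 in male axotomy. All axotomy libraries were below all sham libraries. It was downregulated in males (log2FC = −0.61, SE 0.16, padj = 0.0141) and did not pass in females (log2FC = −0.36, SE 0.16, padj = 0.158). The female log2FC ran from −0.40 to −0.33 when 1 library was left out, and Epha10 passed without male axotomy 2 (padj = 0.038). It also passed in females in a fit of the female libraries only (padj = 0.058) and with the marker covariate (padj = 0.0462). With that covariate the male call of Epha10 was lost (log2FC = −0.13, padj = 0.774). Epha8 held 0.757 and 0.621 normalized TPM in female sham, 0.459, 0.639 and 0.629 in female axotomy, 0.741 and 0.727 in male sham, and 0.518, 0.448 and 0.445 in male axotomy. The female groups overlapped and the male groups did not. Epha8 was downregulated in males (log2FC = −0.64, SE 0.19, padj = 0.0255) and did not pass in females (log2FC = −0.26, SE 0.19, padj = 0.406). In males padj ran from 0.0175 to 0.123, and it missed the threshold without male sham 1 (padj = 0.123) or male sham 2 (padj = 0.102).

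Ephb6, also an Eph receptor without kinase activity, had the highest level of the family at 17.3 and 15.2 normalized TPM in female sham, 15.0, 14.7 and 15.9 in female axotomy, 16.4 and 15.7 in male sham, and 17.3, 17.4 and 15.8 in male axotomy. The groups overlapped, and it passed in neither females (log2FC = −0.09, SE 0.08, padj = 0.484) nor males (log2FC = 0.07, SE 0.08, padj = 0.542). The other B-type receptors had log2FC between −0.31 (Ephb3) and 0.21 (Ephb2) in females and between −0.06 (Ephb1) and 0.13 (Ephb3) in males. Epha4, a receptor of both ephrin types, did not pass in females (log2FC = −0.36) or males (log2FC = −0.44). In 5 libraries 0% to 0.98% of its counts were assigned to transcripts that are not protein-coding and in the other 5 it was 98.6% to 100%. In sham this split followed sex, at 99.3% to 100% in females and 0% to 0.75% in males. Each axotomy group held libraries of both kinds.

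Ephrins had members in both directions. Of the 8, 2 were upregulated (Efna1 and Efna4) and 2 downregulated (Efnb1 and Efnb2) in females, where 10.5% and 9.7% of all genes were. In males 3 were upregulated (Efna1, Efna4 and Efnb3) and 3 downregulated (Efna3, Efna5 and Efnb2), where 22.6% and 19.4% of all genes were. Efna1, Efna3 and Efna4 are consecutive protein-coding genes on chromosome 3 in the RefSeq order. The promoters of the 3 are shown because these neighbors had different responses. Each is the 100 bases before a RefSeq start, 5′ to 3′ on the minus strand of GRCm38.p6, at chr3:89280952-89281051 (Efna1), chr3:89322940-89323039 (Efna3) and chr3:89338029-89338128 (Efna4), with GC boxes in capitals.
Efna1: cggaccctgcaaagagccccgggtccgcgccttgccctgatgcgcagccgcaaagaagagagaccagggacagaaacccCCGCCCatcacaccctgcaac
Efna3: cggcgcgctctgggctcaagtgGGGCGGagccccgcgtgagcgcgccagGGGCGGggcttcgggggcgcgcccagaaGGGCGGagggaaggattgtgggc
Efna4: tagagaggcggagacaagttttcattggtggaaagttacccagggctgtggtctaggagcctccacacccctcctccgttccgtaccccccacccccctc
The window of Efna1 holds 1 GC box, that of Efna3 holds 3 and that of Efna4 holds none in these letters. Efna1 and Efna3 each have a further RefSeq start, whose window is not shown and holds 2 GC boxes in either gene.

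Efna1, the ephrin with the highest level, stood at 30.3 and 31.1 normalized TPM in female sham, 43.0, 40.8 and 41.3 in female axotomy, 30.2 and 30.9 in male sham, and 45.3, 39.3 and 33.8 in male axotomy. Every axotomy library lay above every sham library. Efna1 was upregulated in females (log2FC = 0.44, SE 0.11, padj = 0.0242) and males (log2FC = 0.37, SE 0.11, padj = 0.0225), and the difference between the sexes was −0.07 with an SE of 0.15. When 1 library was left out, padj ran from 0.00583 to 0.163 in females and 0.00434 to 0.154 in males. In females it missed the threshold without female sham 1 (padj = 0.161) or female sham 2 (padj = 0.163), and in males without male sham 1 (padj = 0.154) or male sham 2 (padj = 0.127).

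Efna4 was low, with 12 to 32 counts per sham library and 44 to 60 per axotomy library. Its levels were 0.190 and 0.560 normalized TPM in female sham, 0.886, 0.873 and 1.06 in female axotomy, 0.383 and 0.483 in male sham, and 0.741, 0.670 and 1.02 in male axotomy. Sham and axotomy did not overlap in either sex, and female sham 1 was the lowest library. Efna4 was upregulated in females (log2FC = 1.34, SE 0.39, padj = 0.049) and males (log2FC = 0.90, SE 0.38, padj = 0.0951). In females padj ran from 0.0315 to 0.26 and missed the threshold without female sham 1 (padj = 0.26) or female axotomy 1 (padj = 0.104). In males it ran from 0.0374 to 0.364, and it missed the threshold without male sham 1 (padj = 0.364), male sham 2 (padj = 0.2), female axotomy 1 (padj = 0.113), female axotomy 2 (padj = 0.12), female axotomy 3 (padj = 0.116), male axotomy 1 (padj = 0.133) or male axotomy 3 (padj = 0.22). The male call was also lost with DESeq2 (padj = 0.117), with RLE size factors (padj = 0.102), with protein-coding transcripts only (padj = 0.1003) and with the marker covariate (padj = 0.844).

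Efna3 lies between these genes on the chromosome and held 1.80 and 2.73 normalized TPM in female sham, 1.42, 2.02 and 1.82 in female axotomy, 2.70 and 2.89 in male sham, and 1.53, 1.61 and 1.24 in male axotomy. Female sham 1 lay within the range of the axotomy libraries, and the male groups did not overlap. Efna3 was downregulated in males (log2FC = −0.93, SE 0.22, padj = 0.00933), also without any 1 library, and did not pass in females (log2FC = −0.37, SE 0.22, padj = 0.298). Its male call was lost with the marker covariate (log2FC = −0.73, padj = 0.364). Without the offset for transcript length, Efna3 also passed in females (log2FC = −0.55, padj = 0.0825). Efna5 was downregulated in males (log2FC = −0.57, padj = 0.00665) and not called in females (log2FC = −0.31, padj = 0.132), at 10.8 to 13.2 in sham and 7.82 to 10.3 in axotomy. Efna2, which passed in neither sex, was at 1.63 to 1.75 in sham and 1.78 to 2.70 in axotomy, without overlap, and passed for the mean of the sexes (log2FC = 0.41, padj = 0.0616).

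Efnb2, a transmembrane ephrin that binds B-type receptors, stood at 13.3 and 15.7 normalized TPM in female sham, 9.05, 8.81 and 10.4 in female axotomy, 14.1 and 15.2 in male sham, and 8.45, 10.01 and 10.5 in male axotomy. All axotomy libraries were below all sham libraries. Efnb2 was downregulated in females (log2FC = −0.62, SE 0.11, padj = 0.00803) and males (log2FC = −0.60, SE 0.11, padj = 0.00368), and the difference between the sexes was 0.02 with an SE of 0.16. In females padj ran from 0.00451 to 0.116 when 1 library was left out, and it missed the threshold without female sham 2 (padj = 0.116). Efnb3 held 1.94 and 1.88 normalized TPM in female sham, 1.76, 1.41 and 1.52 in female axotomy, 1.67 and 1.81 in male sham, and 2.56, 2.04 and 2.64 in male axotomy. The 3 male axotomy libraries were above all others. Efnb3 was upregulated in males (log2FC = 0.47, SE 0.16, padj = 0.0445) and did not pass in females (log2FC = −0.29, SE 0.16, padj = 0.268). The male padj ran from 0.0141 to 0.235, and it missed the threshold without male sham 1 (padj = 0.235), male sham 2 (padj = 0.146), male axotomy 1 (padj = 0.111) or male axotomy 3 (padj = 0.102).

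In the Slit and Robo family nothing was upregulated, where 10.5% of all genes in females and 22.6% in males were. The share downregulated was 57.1% in females and 42.9% in males, against 9.7% and 19.4% of all genes. The median log2FC of the 7 genes was −0.30 in females and −0.57 in males. The summed level was 123 to 137 normalized TPM in sham and 87.8 to 117 in axotomy, without overlap. Robo1 (ENSMUSG00000022883.12, chromosome 16), a receptor of Slits, stood at 4.95 and 5.44 normalized TPM in female sham, 2.53, 2.84 and 3.27 in female axotomy, 5.93 and 5.51 in male sham, and 1.83, 3.21 and 2.91 in male axotomy. Every axotomy library was below every sham library, with male axotomy 1 the lowest. Robo1 was downregulated in females (log2FC = −0.85, SE 0.19, padj = 0.0197) and males (log2FC = −1.11, SE 0.19, padj = 0.0026). In females padj ran from 0.00171 to 0.155 when 1 library was left out, and it missed the threshold without female sham 2 (padj = 0.155). Robo1 and Robo2 are neighboring protein-coding genes in the RefSeq order. The promoter of Robo1 is shown as that of the Robo gene with the larger decrease (chr16:72663049-72663148, plus strand of GRCm38.p6, 100 bases before the RefSeq start), and it holds no GC box in these letters.
Robo1: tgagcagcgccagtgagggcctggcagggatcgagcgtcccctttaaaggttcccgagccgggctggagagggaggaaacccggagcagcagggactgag

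Robo2, the Robo with the highest level, was at 59.6 and 62.4 normalized TPM in female sham, 47.6, 49.2 and 52.3 in female axotomy, 65.8 and 63.4 in male sham, and 39.3, 50.4 and 40.9 in male axotomy. The groups did not overlap. Robo2 was downregulated in males (log2FC = −0.57, SE 0.10, padj = 0.00258) and in females (log2FC = −0.30, SE 0.10, padj = 0.0783). Over the fits without 1 library the female padj ran from 0.00867 to 0.368, and it missed the threshold without female sham 1 (padj = 0.191), female sham 2 (padj = 0.368), male sham 1 (padj = 0.12), male sham 2 (padj = 0.141), female axotomy 1 (padj = 0.211) or female axotomy 2 (padj = 0.177). Among the ligands, Slit2 and Slit3 were downregulated in females (log2FC = −0.43, padj = 0.0301 and log2FC = −0.51, padj = 0.0704) and did not pass in males (log2FC = −0.24 and −0.21). Slit1, the most abundant Slit at 41.2 to 47.3 in sham, passed in neither sex (log2FC = −0.08 in females and −0.27 in males). Robo4, which marks endothelium, was downregulated in males (log2FC = −0.58, padj = 0.0244), where the summed level of the 7 endothelial markers was 61.9 to 62.4 in sham and 53.2 to 53.8 in axotomy. Their part in this result was not tested.

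Of the 5 netrin receptors tested (Dcc and 4 Unc5 receptors), 3 were downregulated in both sexes, and of the 4 netrins none was, against 7.47% of all genes. Unc5b (ENSMUSG00000020099.9, chromosome 10), a netrin receptor that mediates repulsion, had the largest decrease of the guidance genes in females among those that passed. It stood at 3.67 and 4.03 normalized TPM in female sham, 1.51, 1.87 and 1.94 in female axotomy, 4.32 and 4.94 in male sham, and 1.33, 1.95 and 1.54 in male axotomy. Every axotomy library was below every sham library. Unc5b was downregulated in females (log2FC = −1.12, SE 0.16, padj = 0.00246) and males (log2FC = −1.52, SE 0.16, padj = 0.000402) and passed without any 1 library. The difference between the sexes did not pass (log2FC = −0.41, padj = 0.524). The 100 bases before its RefSeq start (chr10:60831582-60831681, minus strand of GRCm38.p6), shown as the promoter of this gene, hold 2 GC boxes in capitals.
Unc5b: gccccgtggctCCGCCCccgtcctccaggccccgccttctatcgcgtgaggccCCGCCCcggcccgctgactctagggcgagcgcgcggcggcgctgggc

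Unc5c, the Unc5 receptor with the highest level, was at 6.16 and 6.49 normalized TPM in female sham, 4.17, 4.89 and 4.87 in female axotomy, 6.39 and 6.99 in male sham, and 3.81, 5.19 and 4.36 in male axotomy. The groups did not overlap. Unc5c was downregulated in males (log2FC = −0.58, SE 0.12, padj = 0.0055) and females (log2FC = −0.45, SE 0.12, padj = 0.0395), where padj ran from 0.01 to 0.241 and missed the threshold without female sham 1 (padj = 0.125), female sham 2 (padj = 0.241) or female axotomy 1 (padj = 0.133). Dcc, the attractive netrin-1 receptor, rested on 49.2 to 206 counts per library and held 0.387 and 0.402 normalized TPM in female sham, 0.140, 0.262 and 0.264 in female axotomy, 0.515 and 0.489 in male sham, and 0.227, 0.337 and 0.254 in male axotomy. All axotomy libraries lay below all sham libraries. Dcc was downregulated in females (log2FC = −0.83, SE 0.26, padj = 0.0647) and males (log2FC = −0.87, SE 0.26, padj = 0.0246). In females padj ran from 0.0414 to 0.279, and it missed the threshold without female sham 1 (padj = 0.189), female sham 2 (padj = 0.279), male sham 2 (padj = 0.104) or female axotomy 1 (padj = 0.148). In males it ran from 0.00761 to 0.121 and missed without male sham 1 (padj = 0.121). Unc5a was downregulated in males (log2FC = −0.52, padj = 0.0273) and did not pass in females (log2FC = −0.28), and Unc5d passed in neither sex (log2FC = 0.30 in females and −0.10 in males).

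Ntn1, which encodes netrin-1, stood at 3.11 and 3.84 normalized TPM in female sham, 2.41, 2.23 and 3.43 in female axotomy, 3.13 and 3.32 in male sham, and 4.27, 4.24 and 6.83 in male axotomy. The male axotomy libraries were above all others, and male axotomy 3 was the highest. In females the groups overlapped. Ntn1 was upregulated in males (log2FC = 0.66, SE 0.23, padj = 0.0504) and did not pass in females (log2FC = −0.37, SE 0.23, padj = 0.322). The male padj ran from 0.0321 to 0.218 when 1 library was left out, and it missed the threshold without male sham 1 (padj = 0.218), male sham 2 (padj = 0.171) or male axotomy 3 (padj = 0.137). Without a filter on low counts the male padj was 0.171. With the fibroblast and meningeal markers as covariate the male value was log2FC = −0.10, padj = 0.879, and male axotomy 3, the library highest in Ntn1, had the highest sum of these markers. Most other male calls were lost in that fit too, and these markers and the injury cannot be told apart in males. Ntn4, a secreted netrin of basement membranes, was also highest in male axotomy 3, at 6.89 against 4.15 and 3.65 in male axotomy 1 and 2 and 3.13 to 3.55 in male sham, and passed in males (log2FC = 0.55, padj = 0.0872).

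**Figure D4:**
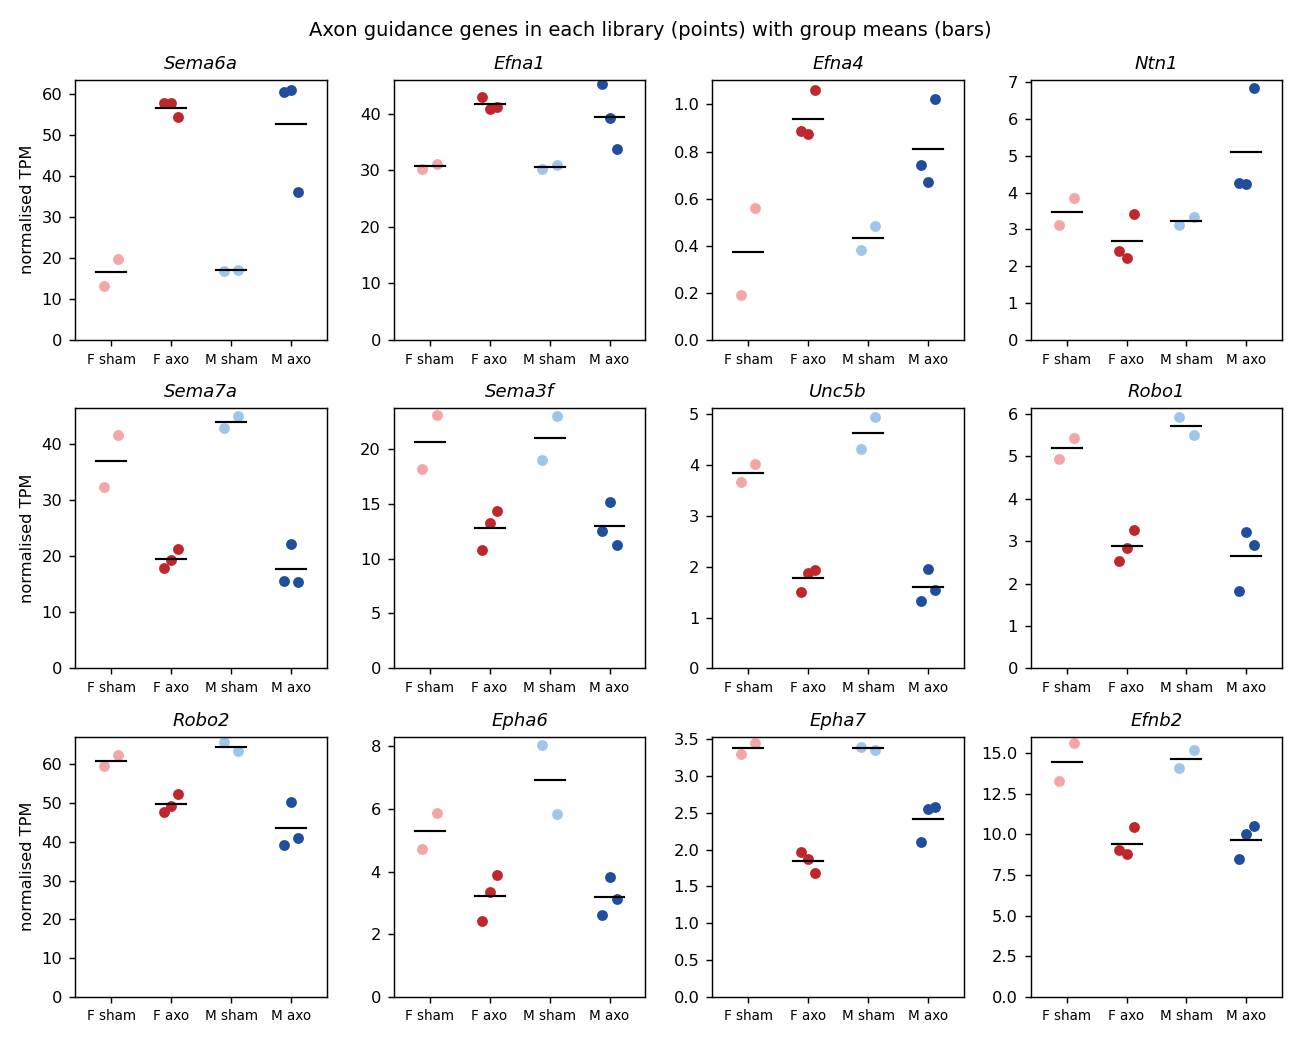
Normalized TPM (axis from 0) of 12 guidance genes in each library, with F for female, M for male and axo for axotomy, points for the 2 sham or 3 axotomy libraries of a sex and a bar for the group mean. In Sema6a, Efna1 and Efna4 every axotomy point lies above every sham point. In Sema7a, Sema3f, Unc5b, Robo1, Robo2, Epha6, Epha7 and Efnb2 every axotomy point lies below. In Ntn1 the male axotomy points lie above the rest, with 1 of them at 6.83.

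The sexes were compared in sham, after axotomy and in their response to it. In sham no guidance gene differed between males and females with edgeR (0 at an unadjusted p under 0.05, against 3.27% of all genes, and 0 with DESeq2). Of all genes tested, 0.0288% passed with the higher level in male sham and 0.0144% in female sham. After axotomy 2 genes were higher in males, Ntn1 (log2FC = 0.92, SE 0.21, padj = 0.0906) and Efnb3 (log2FC = 0.62, SE 0.14, padj = 0.0913), and none was higher in females, against 1.3% and 0.331% of all genes. Both passed narrowly, and 15 genes had an unadjusted p under 0.05, or 22.1%, against 15.3% of all genes. Without male axotomy 2, 18 genes passed (10 higher in males and 8 higher in females), where 8.94% and 8.45% of all genes did, with padj of 0.0281 for Ntn1 and 0.018 for Efnb3. Without any other 1 library neither gene passed, with padj up to 0.285 for Ntn1 and 0.3 for Efnb3. DESeq2 gave 8 genes, all higher in males, where 4.44% of the genes to which it gave a padj were higher in males.

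The difference between the male and female responses (the sex by injury interaction) passed for 0 of 68 guidance genes with edgeR, against 0.072% of all genes. At an unadjusted p under 0.05 there were 11, or 16.2%, against 11.4% of all genes. DESeq2 gave 2, Ntn1 and Sema4g, and called 3% of the genes to which it gave a padj. The largest differences among the 11 were in Sema5b (log2FC = −1.06, padj = 0.434), Ntn1 (log2FC = 1.03, padj = 0.289), Efnb3 (log2FC = 0.76, padj = 0.27) and Sema4g (log2FC = 0.72, padj = 0.252). Without male axotomy 2, 13 genes passed, of which 5 had the higher response in males and 8 the lower, where 5.89% and 4.73% of all genes did. Male axotomy 2 had the lowest fibroblast and meningeal, macrophage, Schwann cell and satellite glia sums of the 3 male axotomy libraries and the highest depth. The part of these in the counts was not tested.

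Guidance cues and adhesion partners outside these families were counted as a list. It was chosen with earlier results of these data known, so its counts are no independent comparison. Of 27 listed genes, 26 were tested, with 4 upregulated and 11 downregulated in females and 4 upregulated and 13 downregulated in males. Of all genes, 10.5% and 9.7% were upregulated and downregulated in females and 22.6% and 19.4% in males. Flrt3, an adhesion protein that binds Robo1 and Unc5 receptors, was at 28.6 and 36.2 normalized TPM in female sham, 148, 128 and 121 in female axotomy, 25.7 and 27.5 in male sham, and 163, 124 and 94.4 in male axotomy, and was upregulated in females (log2FC = 2.03, SE 0.21, padj = 0.000663) and males (log2FC = 2.26, SE 0.21, padj = 0.000281). The axotomy libraries lay far above sham. Chl1, a cell adhesion protein that associates with neuropilin-1, was upregulated (log2FC = 0.67 in females and 0.66 in males). Dscam, an adhesion protein that takes part in netrin-1 responses, was downregulated (log2FC = −0.82 and −1.26). Among parts of the receptor for myelin inhibitors, Lingo1 was downregulated (log2FC = −0.60 and −1.17), as was the ligand Omg (log2FC = −0.90 and −0.76). Mag, another ligand of that receptor, was upregulated in males (log2FC = 0.67, padj = 0.0156) and did not pass in females (log2FC = 0.05, padj = 0.878), and Rtn4, which encodes Nogo, was upregulated in females (log2FC = 0.38, padj = 0.0257) and did not pass in males (log2FC = 0.21, padj = 0.11). No gene of this list had a sex by injury interaction.

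Of 47 genes for intracellular signaling of guidance receptors, 9 were upregulated and 6 downregulated in females, and 14 were upregulated and 21 downregulated in males, where 10.5% and 9.7% of all genes in females and 22.6% and 19.4% in males were. Rnd1, a small GTPase that binds plexins, was upregulated in females (log2FC = 1.59, SE 0.26, padj = 0.00425) and males (log2FC = 1.76, SE 0.26, padj = 0.00145). Rac1, Rhoa and Rock2, which act on the actin cytoskeleton, were upregulated in both sexes, and Limk1, a kinase that acts on cofilin, was downregulated (log2FC = −0.34 in females and −0.68 in males). Limk2, the other LIM kinase, was upregulated in females (log2FC = 0.21, padj = 0.0893) and males (log2FC = 0.23, padj = 0.0376). None of the 47 had a sex by injury interaction. This list too was chosen with earlier results of these data known.

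RefSeq promoters matched 59 of the 69 genes, with 75 windows, of which the 250 bases before the start (GRCm38.p6) were searched. A GC box (GGGCGG on either strand) was found in 53 of the 75, or 70.7%, against 42.6% of the 21262 windows of all protein-coding genes, with a median GC content of 64.4% against 55.6%. The AP-1 motif (TGACTCA or TGAGTCA, the 2 strands of 1 motif) was in 2 windows, those of Sema4c and Sema6b, or 2.67% against 4.06%. The palindromic cAMP response element (TGACGTCA) was in 1 window, that of Epha2, or 1.33% against 1.92%. None of these motifs contains another.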

How the data were processed

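The labels describe 10 libraries of pooled mouse DRG (2 sham and 3 axotomy libraries per sex). The authors trimmed the reads with Trimmomatic 0.39 and ran Salmon 1.3.0 against Gencode M27 (GRCm39) with its sequence and GC bias models, and how strand was set was not given in the sources used here. Deposited estimated counts per transcript carry no normalization. Gene sums, rounded to whole counts, entered edgeR 4.0.16 under R 4.3.3 (TMM, average effective transcript length as offset, quasi-likelihood F test, filterByExpr minimum count 10) in 1 fit of all 10 libraries with 4 group means. Benjamini-Hochberg adjustment covered the 20836 genes tested, and padj under 0.1 was called. Deposited TPM values were multiplied by 1 factor per library and printed as levels. Deposited effective lengths entered as the offset and in the length-corrected counts that gave these factors.

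Genes described with all values had padj under 0.1 and an absolute log2FC over 0.58 in a sex, the highest mean level in a family, or a difference between the sexes. The guidance genes and lists were chosen with earlier results of these data known. Libraries are separate pools of mice, and 3 counts, the limit of a 0, were 0.0333 to 0.0543 CPM, counting error only. Alternatives were DESeq2 1.42.0, other normalization, filters and designs, protein-coding transcripts only, a marker covariate, and each library left out. Promoters are RefSeq sequences of GRCm38.p6, another build than that of the files, matched by symbol.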

Additional observations from a re-analysis of the deposited data

How the results depend on the processing

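The counts of guidance DEGs with 1 library left out ran from 5 to 31 in females (1 to 7 up, 3 to 25 down), 23 to 40 in males (2 to 11 up, 21 to 29 down), 31 to 43 for the mean of the sexes, 0 to 13 for the interaction, 0 to 18 for males against females after axotomy and 0 to 0 in sham. A left-out sham library leaves an arm of 1 library, which is assumed to vary like the other groups. With padj under 0.05 there were 13 in females and 0 for the sexes after axotomy. The marker covariate gave 5 in males and 0 for the sexes after axotomy. For the interaction, DESeq2 gave 2, no filter on low counts 1 and the replicate block 2. For males against females after axotomy, DESeq2 gave 8, RLE size factors 1, no filter 4, no length offset 4, a fit of only the groups compared 0 and the replicate block 7. The male log2FC of Ntn1 changed sign with the covariate, to −0.10 (padj = 0.879). For single genes, leaving out 1 library lost a call 64 times and added a call 4 times. Causes were not tested. The total counts under the other planned settings stayed within 1.5 times their value.

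Deviations from the group mean in libraries with the same replicate number had r = −0.11 to 0.15 over 13 pairs (median −0.01). Of 10 libraries, 3 correlated best with their own number. In a group of 2 libraries these deviations mirror each other, so the pairs are not independent. Whether equal numbers mark a shared batch cannot be told from this check. With the replicate block 30 genes passed in females, 39 in males, 41 for the mean of the sexes and 0 in sham. Of all 20836 genes tested with this block, 2450 were up and 2491 down in females, and 4582 and 4148 in males. The all-gene counts were 4851 and 4581 for the mean of the sexes. With it Ntn1 passed in females (log2FC = −0.60, padj = 0.00929) and Efna4 was lost in males (padj = 0.155). Depth limits Sema3a, Robo3, Efna4 and Epha1, which rest on few counts.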
